A study of Mus musculus with 60 samples.

Results

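The 39 Hox cluster genes were taken from a table of 23127 genes as all rows whose symbol is Hox, a cluster letter from a to d and a number. They comprise 11 genes of HoxA, 10 of HoxB, 9 of HoxC and 9 of HoxD, in 13 paralog groups. The study mapped H3K27me3 and DNA methylation in gastrulating ICR mouse embryos of 6.5, 7.0 and 7.5 days post coitum, and 54 of its 60 samples were not analysed here. The other 6 samples are polyadenylated RNA libraries from embryo explants kept for 48 hours in N2B27 medium. One arm received EPZ005687, a small molecule that inhibits EZH2, the enzyme that methylates H3K27, and the other received DMSO, its solvent, in equal volume. Each arm gave 1 library from anterior embryonic tissue (A), 1 from posterior embryonic tissue (P) and 1 from extraembryonic tissue (ExE). The labels do not give the stage of the embryos used for RNA, the number pooled in a library, or any mutation. Column names in the deposited table carry a code that differs between the arms but not within one, so handling that goes with this code and the inhibitor cannot be told apart.

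Hox genes encode homeodomain transcription factors that give cells their position along the body axis. Genes at the 3' end of a cluster, which have low paralog numbers, are switched on first and furthest anterior, and those at the 5' end follow later and further posterior. Before activation the clusters carry H3K27me3, the mark placed by EZH2 within Polycomb repressive complex 2 (PRC2), and CpG-rich promoters are the usual sites of that mark. In mouse embryos the first Hox transcripts appear in the posterior primitive streak, and the anterior neural plate remains free of them.

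Library totals ran from 1000342 counts in A EPZ005687 to 5812535 in ExE DMSO, with 1780304 in A DMSO, 3413049 in P DMSO, 2173284 in P EPZ005687 and 1995240 in ExE EPZ005687. Levels below are counts per 1000000 of the library total (CPM), not scaled to gene length, so they compare libraries and not genes. A count of 0 allows up to 3 counts, a floor of 1.69 CPM in A DMSO, 2.999 in A EPZ005687, 0.879 in P DMSO, 1.38 in P EPZ005687, 0.516 in ExE DMSO and 1.504 in ExE EPZ005687. Intervals are 95% exact Poisson intervals for levels and exact binomial intervals for ratios and shares. They and the floors cover counting error only, since the reads carry no molecular identifiers. Folds given as at least a value set the higher count, taken as exact, against 3 counts in a library at 0. Such folds are not 95% limits, and counting error in the higher count would lower them. In these bulk libraries fewer cells of a type and less RNA per cell cannot be told apart. The region labels were set against markers, and not all markers followed them. Otx2, a forebrain and midbrain gene, stood at 193 and 146 CPM in the A libraries (DMSO and then EPZ005687), 22.0 and 33.6 in P, and 0 and 2.005 in ExE. The 12 primitive streak and caudal markers summed to 22.5 and 215 CPM in A and to 27.8 and 73.6 in P. With EPZ005687 they were thus higher in A than in P, and T alone held 203 CPM in A EPZ005687. In ExE, visceral endoderm markers summed to 21439 and 13461 CPM, while 8 trophoblast progenitor markers summed to 11.4 and 24.1 CPM, with Cdx2 at 0 in both.

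Hox transcripts were rare in every library, and a few genes held most of them. Of the 39 genes, 17 had 10 or more counts summed over the 6 libraries, 19 had 1 to 9, and Hoxb8, Hoxc4 and Hoxc11 had none. No Hox gene had a count in all 6 libraries. Hoxa5, Hoxc13 and Hoxd8 had one in 5. More than 3 counts were reached in at least 1 library by 21 genes, and 12 of those reached it in exactly 1 library. HoxB, on chromosome 11 from 96194316 to 96368254 of GRCm38.p6, held 381 counts over all libraries. HoxC (chromosome 15, 102921131 to 103036856) held 142, HoxD (chromosome 2, 74668225 to 74765142) held 141 and HoxA (chromosome 6, 52155367 to 52260880) held 103.

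**Figure D1:**
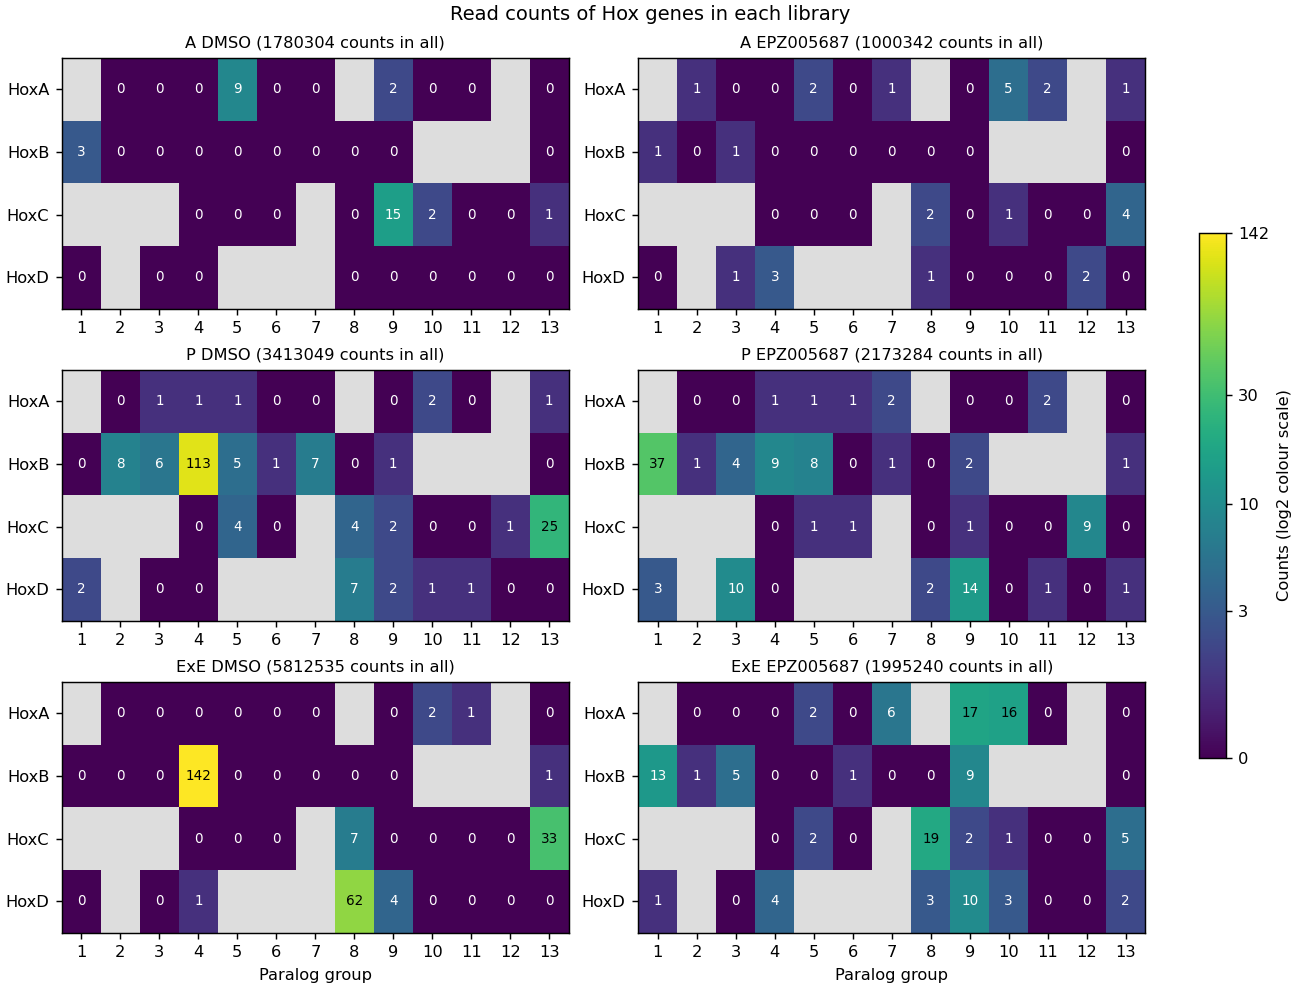
Counts of the Hox genes reported here in the 6 libraries, with clusters as rows and paralog groups 1 to 13 as columns; colour is on a log2 scale and grey marks positions with no gene in the table or with one not reported here. Hoxb4 stands out with 113 counts in P DMSO and 142 in ExE DMSO, while the EPZ005687 libraries spread their counts over more genes.

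The promoters of 4 genes are shown because these genes held their counts in different libraries: Hoxb4 and Hoxd8 mainly with DMSO, Hoxb1 and Hoxd9 mainly with EPZ005687. Each runs from 250 bases before to 50 bases after the transcription start, on the plus strand, from RefSeq on GRCm38.p6, with CpG sites in capitals. Hoxb1 lies at chr11:96365508-96365807, Hoxb4 at chr11:96318017-96318316, Hoxd8 at chr2:74704365-74704664 and Hoxd9 at chr2:74697513-74697812.
Hoxb1: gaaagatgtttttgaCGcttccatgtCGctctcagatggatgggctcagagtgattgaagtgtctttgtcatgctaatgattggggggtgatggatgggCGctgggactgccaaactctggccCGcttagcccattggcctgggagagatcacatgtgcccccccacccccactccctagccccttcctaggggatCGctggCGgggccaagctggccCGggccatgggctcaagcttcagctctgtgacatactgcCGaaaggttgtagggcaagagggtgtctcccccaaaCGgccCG
Hoxb4: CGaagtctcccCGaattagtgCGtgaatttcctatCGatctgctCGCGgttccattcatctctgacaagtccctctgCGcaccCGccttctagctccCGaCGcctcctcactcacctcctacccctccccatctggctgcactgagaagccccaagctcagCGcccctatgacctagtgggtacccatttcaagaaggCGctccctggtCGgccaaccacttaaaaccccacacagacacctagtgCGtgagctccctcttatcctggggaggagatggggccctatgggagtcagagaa
Hoxd8: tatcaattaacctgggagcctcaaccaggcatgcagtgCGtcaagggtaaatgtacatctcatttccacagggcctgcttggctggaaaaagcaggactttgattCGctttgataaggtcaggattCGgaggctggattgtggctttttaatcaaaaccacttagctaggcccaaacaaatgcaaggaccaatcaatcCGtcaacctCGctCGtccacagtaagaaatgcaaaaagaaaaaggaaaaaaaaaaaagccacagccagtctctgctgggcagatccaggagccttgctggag
Hoxd9: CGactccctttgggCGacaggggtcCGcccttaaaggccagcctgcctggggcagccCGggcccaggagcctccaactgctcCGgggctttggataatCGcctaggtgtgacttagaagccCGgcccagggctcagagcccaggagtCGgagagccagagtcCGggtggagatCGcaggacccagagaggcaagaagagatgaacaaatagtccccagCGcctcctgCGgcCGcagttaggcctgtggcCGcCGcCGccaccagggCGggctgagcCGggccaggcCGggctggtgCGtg
The windows hold 10 CpG sites at Hoxb1, 14 at Hoxb4, 6 at Hoxd8 and 20 at Hoxd9. With 4 genes picked by their counts, these numbers cannot show whether CpG sites go with the arm. RefSeq promoters were matched for 22 Hox genes, among them only Hoxb1, Hoxb4 and Hoxb8 of HoxB and only Hoxc4 of HoxC. The 22 genes have 24 windows between them, which thus describe mainly HoxA and HoxD. The median of these windows was 14.5 CpG sites (range 4 to 45), against 7 over 32851 promoters of all genes. The motif TTTATG, a form of the site bound by caudal factors, was found on either strand in 5 of the 24 windows (20.8%), against 11.9% of all promoters. AGGTCA, the core bound by retinoic acid receptors and many other nuclear receptors, was found on either strand in 7 (29.2%), against 16.3%. Among the 4 printed genes, Hoxb4 is the member counted most.

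Summed over the 39 genes, Hox transcripts were lowest in the anterior libraries. The sum was 18.0 CPM in A DMSO (32 counts, interval 12.3 to 25.4) and 29.99 in A EPZ005687 (30 counts, 20.2 to 42.8). In the posterior libraries it was 62.7 CPM with DMSO (214 counts, 54.6 to 71.7) and 53.4 with EPZ005687 (116 counts, 44.1 to 64.0). The extraembryonic sum was 43.5 CPM with DMSO (253 counts, 38.3 to 49.2) and 61.1 with EPZ005687 (122 counts, 50.8 to 73.0). Anterior and posterior intervals did not overlap within either arm. In the DMSO arm A stayed lowest without Hoxb4, but the size of its gap to P and ExE depended on Hoxb4. Without it the sum was 29.6 CPM in P DMSO and 19.1 in ExE DMSO (15.7 to 23.0), with the A sums unchanged. Both then lay below A EPZ005687 and above A DMSO, with intervals that overlapped those of both A libraries. The log2 ratio of P DMSO over A DMSO without Hoxb4 was 0.84 (0.25 to 1.46) on the normalised scale described below. P EPZ005687, at 49.2 CPM without Hoxb4 (40.3 to 59.5), and ExE EPZ005687, at 61.1, stayed above both A sums. The genes behind the sums differed by library. Hoxb4 made up 52.8% of Hox counts in P DMSO and 56.1% in ExE DMSO, whereas Hoxb1 led P EPZ005687 with 31.9% and Hoxc8 led ExE EPZ005687 with 15.6%. Hoxc9 led A DMSO with 46.9% of its 32 counts, and Hoxa10 led A EPZ005687 with 16.7% of its 30.

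**Figure D2:**
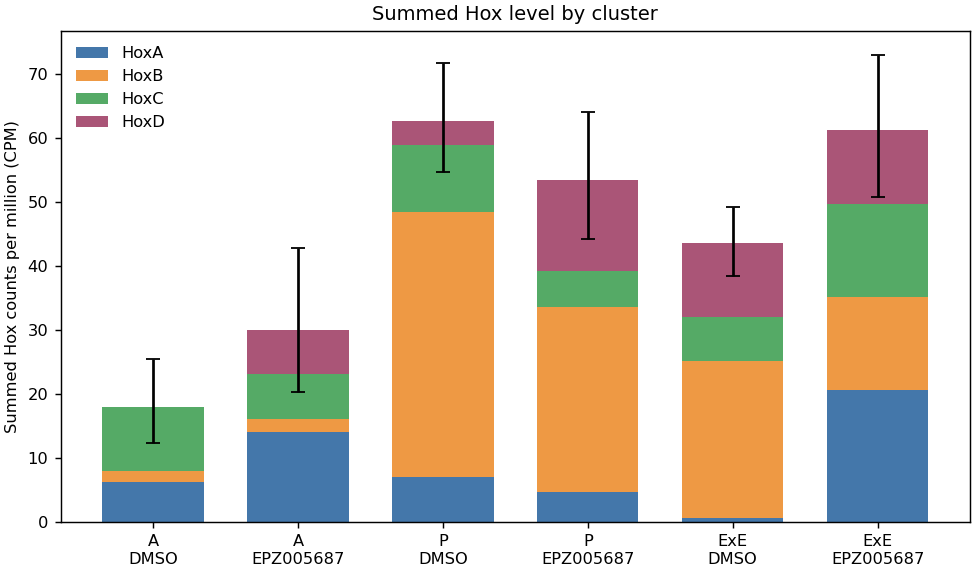
Summed Hox level in CPM in each of the 6 libraries, stacked by cluster; error bars are 95% Poisson intervals of the sum and there is 1 library per bar. The A libraries, at 18.0 and 29.99 CPM, lie below the other 4, which lie between 43.5 and 62.7, and HoxB takes the most of P DMSO, P EPZ005687 and ExE DMSO.

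The comparison of posterior with anterior tissue asks whether Hox transcripts followed the body axis. On a scale normalised by the trimmed mean of M-values (TMM), the summed Hox ratio of P over A was 1.92 on the log2 scale with DMSO (interval 1.38 to 2.51) and 1.22 with EPZ005687 (0.63 to 1.85). Without Hoxb4 these ratios were 0.84 (0.25 to 1.46) and 1.10 (0.51 to 1.74). HoxB differed most, with a log2 ratio of 4.73 with DMSO (141 counts against 3) and 4.25 with EPZ005687 (63 against 2). Paralog groups 1 to 4 had 149 counts in P DMSO against 3 in A DMSO, a log2 ratio of 4.81 (3.24 to 7.11). Without Hoxb4 the P over A ratio with DMSO was 2.76 (1.10 to 5.11) for groups 1 to 4, from 36 counts and 3, and 2.40 (0.71 to 4.76) for HoxB, from 28 and 3. Groups 9 to 13 had 36 against 20, a log2 ratio of 0.03 (-0.80 to 0.89) that turned to -0.09 on library totals. HoxD had 13 counts in P DMSO and 0 in A DMSO, 2.45-fold higher when the 13 are taken as exact against the floor of 3 counts in A DMSO. HoxA and HoxC differed by less than counting error between P DMSO and A DMSO, at log2 ratios of 0.31 (-0.78 to 1.48) and 0.18 (-0.68 to 1.08). Summed over 18 genes that flank the clusters, the same ratio was 0.20 with DMSO and 0.55 with EPZ005687. P and A also differed in markers of other tissues, whose part in these ratios was not tested. With DMSO, 8 visceral endoderm markers summed to 74.1 CPM in A (Apoa1, Amn and Hnf4a at 0) and 7497 in P (none at 0), and 8 blood and endothelium markers to 32.0 in A (Klf1 and Tal1 at 0) and 7718 in P (none at 0).

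Posterior and extraembryonic tissue were closer in total than posterior and anterior tissue were. The summed Hox log2 ratio of P over ExE was 0.35 with DMSO (interval 0.08 to 0.61) and 0.16 with EPZ005687 (-0.22 to 0.54), and the latter turned to -0.20 on library totals. With DMSO, HoxA had 24 counts in P and 3 in ExE, a log2 ratio of 3.59 (1.87 to 5.96), and HoxD had 13 and 67, a log2 ratio of -1.78 (-2.76 to -0.91). HoxB held the most counts in both DMSO libraries, 141 in P and 143 in ExE, a log2 ratio of 0.57 (0.22 to 0.91). Without Hoxb4 its counts there were 28 and 1. HoxC had 36 and 40 counts, a log2 ratio of 0.43 (-0.26 to 1.12). With EPZ005687 the HoxA order was the other way round, with 10 counts in P and 41 in ExE (-1.80, interval -2.97 to -0.78), while HoxB had 63 and 29 (1.35, interval 0.69 to 2.04). The blood and endothelium markers were also higher in P with DMSO and in ExE with EPZ005687, at 7718 CPM in P and 380 in ExE with DMSO and 1305 and 30266 with EPZ005687, and their part was not tested.

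Within P DMSO the counts of the low paralog groups sat on few genes. Hoxb4, which is expressed up to the lower hindbrain and is also known for expanding blood stem cells, had 0 counts in A DMSO, 113 in P DMSO, 142 in ExE DMSO, 0 in A EPZ005687, 9 in P EPZ005687 and 0 in ExE EPZ005687. It was therefore high in 2 libraries, both DMSO, low in P EPZ005687, and at 0 in the other 3. Its levels were 33.1 CPM (27.3 to 39.8) in P DMSO and 24.4 CPM (20.6 to 28.8) in ExE DMSO, a fold of 1.20 (0.92 to 1.54) on the TMM scale that did not exceed counting error. P DMSO was at least 21.3-fold higher than A DMSO, and ExE DMSO at least 17.8-fold higher. Hoxb4 lies at chromosome 11, 96318267 to 96321638, wholly inside the annotated span of Hoxb3, and how the authors' counting shared reads between them is not given in the sources used here. Hoxb3 had 0 counts in A DMSO, 6 in P DMSO, 0 in ExE DMSO, 1 in A EPZ005687, 4 in P EPZ005687 and 5 in ExE EPZ005687, so its few counts did not track those of Hoxb4.

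**Figure D3:**
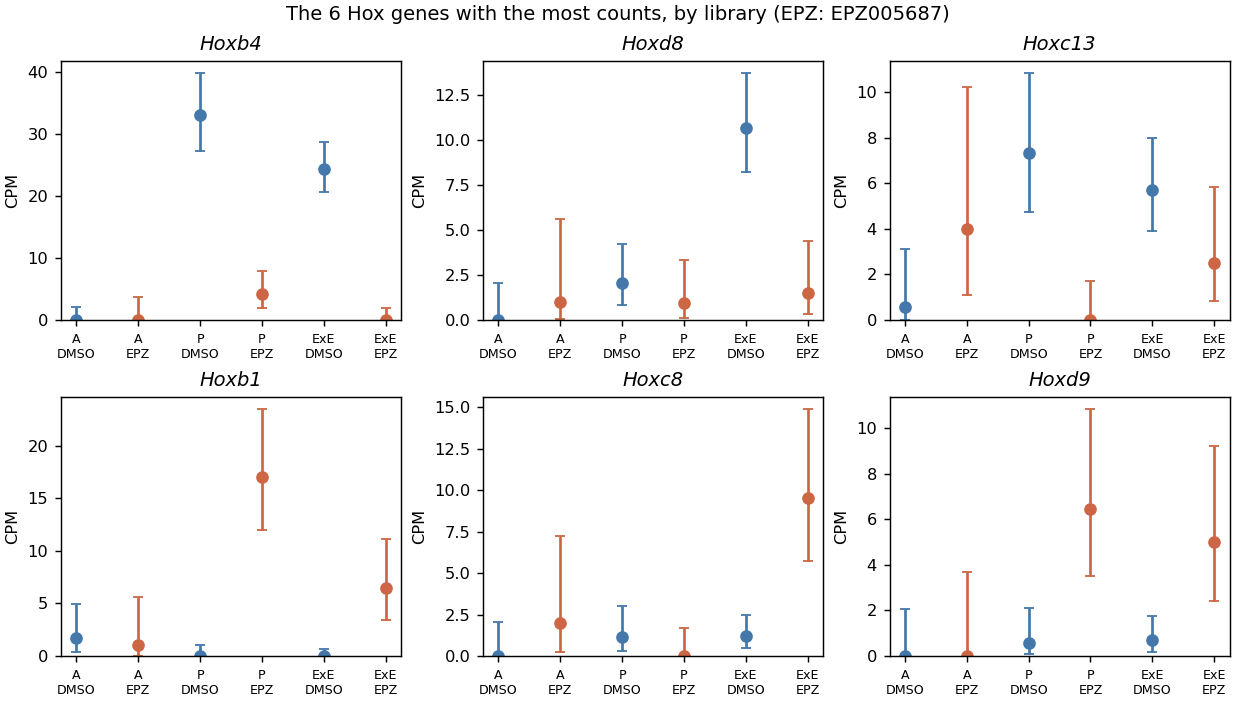
Level in CPM of the 6 Hox genes with the most counts, by library, with 95% Poisson intervals; blue marks DMSO and orange marks EPZ005687 (EPZ), with 1 library per point. Hoxb4, Hoxd8 and Hoxc13 have their highest points with DMSO, and Hoxb1, Hoxc8 and Hoxd9 with EPZ005687.

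For the earliest genes of the clusters, groups 1 to 3, each group had its highest summed CPM in a P library. ExE EPZ005687 held counts of them too, mainly of Hoxb1 and Hoxb3. Hoxb1, which sets the identity of the fourth hindbrain segment, had 37 counts in P EPZ005687, 13 in ExE EPZ005687, 3 in A DMSO, 1 in A EPZ005687 and 0 in P DMSO and ExE DMSO. Hoxb4 thus had its highest level in P DMSO, and Hoxb1 had its highest in P EPZ005687. The Hoxb1 level of 17.0 CPM in P EPZ005687 (12.0 to 23.5) was at least 17.5-fold above P DMSO, and ExE EPZ005687 was at least 7.85-fold above ExE DMSO. Library totals in place of TMM move every fold between the ExE libraries by more than 1.5 times, and made the latter at least 12.6-fold. Hoxb2, also a hindbrain gene, had 8 counts in P DMSO, 1 in P EPZ005687, 1 in ExE EPZ005687 and 0 in the other 3 libraries. Hoxd3, which patterns the uppermost neck vertebrae, had 10 counts in P EPZ005687, 1 in A EPZ005687 and 0 in the other 4. Its annotated span covers the whole of Hoxd4, 7183 bases, which had at most 4 counts in a library. Hoxa2, Hoxa3, Hoxa4 and Hoxd1 had at most 3 counts in any library.

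The trunk genes of groups 5 to 8 were split between regions. Hoxd8 had 62 counts in ExE DMSO, 7 in P DMSO, 3 in ExE EPZ005687, 2 in P EPZ005687, 1 in A EPZ005687 and 0 in A DMSO. Its 10.7 CPM in ExE DMSO (8.18 to 13.7) stood 5.90-fold above P DMSO (2.70 to 15.3) and 11.4-fold above ExE EPZ005687 (3.73 to 56.8), or 7.09-fold on library totals. Hoxc8, which patterns the thoracic skeleton, had 19 counts in ExE EPZ005687, 7 in ExE DMSO, 4 in P DMSO, 2 in A EPZ005687 and 0 in A DMSO and P EPZ005687. The paralogs Hoxd8 and Hoxc8 were thus high in opposite ExE libraries, Hoxc8 being 4.92-fold higher with EPZ005687 (1.98 to 13.8), or 7.91-fold on library totals. Hoxb5 had 8 counts in P EPZ005687, 5 in P DMSO and 0 elsewhere. Its 1.46 CPM in P DMSO lay below the A DMSO floor of 1.69 CPM. In P EPZ005687 it was at 3.68 CPM (1.59 to 7.25), against an upper limit of 3.69 in A EPZ005687. Its counts of 0 in A therefore cannot show that it was lower there than in P. Hoxa5, needed in lung and neck development, had 9 counts in A DMSO, 2 in A EPZ005687, 2 in ExE EPZ005687, 1 in each P library and 0 in ExE DMSO. Hoxb7 had 7 counts in P DMSO and Hoxa7 had 6 in ExE EPZ005687, while Hoxa6, Hoxb6 and Hoxc6 had at most 1 in any library and Hoxc5 at most 4.

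The late genes of groups 9 to 13 were counted outside the posterior embryo too. Hoxc13, known for its role in hair and nails, had 33 counts in ExE DMSO, 25 in P DMSO, 5 in ExE EPZ005687, 4 in A EPZ005687, 1 in A DMSO and 0 in P EPZ005687. The DMSO libraries of P and ExE were alike at 7.32 CPM (4.74 to 10.8) and 5.68 (3.91 to 7.97), and each exceeded its EPZ005687 partner, by at least 5.89-fold in P and by 3.64-fold (1.41 to 12.0) in ExE, or 2.27-fold on library totals. Hoxd9 had 14 counts in P EPZ005687, 10 in ExE EPZ005687, 4 in ExE DMSO, 2 in P DMSO and 0 in both A libraries. It was higher with EPZ005687 in both regions, 9.91-fold in P (2.28 to 89.9) and 4.53-fold in ExE (1.31 to 19.8), or 7.28-fold in ExE on library totals. Hoxa9, a regulator of blood progenitors, had 17 counts in ExE EPZ005687, 2 in A DMSO and 0 in the other 4, at least 10.3-fold above ExE DMSO, or at least 16.5-fold on library totals. Hoxa10, which patterns the lumbar skeleton and the uterus, had 16 counts in ExE EPZ005687, 5 in A EPZ005687, 2 in P DMSO, 2 in ExE DMSO and 0 in A DMSO and P EPZ005687. The 2 neighbours were thus highest in the same library, and Hoxa10 was 14.5-fold above ExE DMSO (3.41 to 130), or 23.3-fold on library totals. Hoxb9 had 9 counts in ExE EPZ005687, 2 in P EPZ005687, 1 in P DMSO and 0 in the other 3. Hoxc9 had 15 counts in A DMSO, 2 in P DMSO, 2 in ExE EPZ005687, 1 in P EPZ005687 and 0 in A EPZ005687 and ExE DMSO. Among members with 10 or more counts, Hoxc9 was the one most counted in anterior tissue, 13.2-fold above P DMSO (3.08 to 119), and it was chosen for mention after its values were seen. Hoxc12 had 9 counts in P EPZ005687, 1 in P DMSO and 0 elsewhere. Hoxb13, Hoxc10, Hoxa11, Hoxa13 and the other HoxD genes from group 10 on had at most 3 counts in a library.

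The comparison of the arms asks how Hox transcripts differed with the EZH2 inhibitor. Over all 39 genes the summed log2 ratio of EPZ005687 over DMSO on the TMM scale was 0.32 in A (-0.45 to 1.08), -0.38 in P (-0.72 to -0.05) and -0.19 in ExE (-0.52 to 0.12). Library totals in place of TMM raised these ratios by 0.42, 0.15 and 0.68, which gave 0.49 and thus the opposite sign in ExE. Leaving out Hoxb4 gave 0.58 (0.18 to 0.99) in P and 0.99 (0.61 to 1.38) in ExE, so in P and in ExE the sign turned without Hoxb4. Hoxb4 itself was 8.87-fold higher with DMSO in P (4.51 to 19.9) and at least 26.1-fold higher in ExE, or at least 16.2-fold on library totals. With 1 library per region and treatment these ratios have no test. The flanking genes gave log2 ratios of -0.30 in A, 0.05 in P and -0.19 in ExE.

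By cluster, the sign of the arm ratio depended on the cluster and, for HoxB, on Hoxb4. In ExE, HoxA had 41 counts with EPZ005687 and 3 with DMSO, a log2 ratio of 4.63 (2.98 to 6.97), and HoxB had 29 and 143, a log2 ratio of -1.44 (-2.07 to -0.86). Without Hoxb4, HoxB had 29 and 1 counts in ExE, a log2 ratio of 5.72 (3.12 to 11.1), so the other HoxB genes lay on the same side as HoxA. HoxC had 29 and 40 counts there, a log2 ratio of 0.39 (-0.35 to 1.12), and HoxD was at 11.5 CPM in both ExE libraries, a log2 ratio of -0.68 (-1.44 to 0.018) on the TMM scale. In P, HoxD had 31 counts with EPZ005687 and 13 with DMSO, a log2 ratio of 1.76 (0.78 to 2.81), while HoxB had 63 and 141 (-0.66, interval -1.11 to -0.22), or 54 and 28 without Hoxb4 (1.45, interval 0.77 to 2.16), and HoxC 12 and 36 (-1.08, interval -2.16 to -0.11). HoxA in P did not differ beyond counting error, at -0.76 (-1.99 to 0.36). By position, the ExE libraries differed at both ends of the clusters. Groups 1 to 4 had 143 counts with DMSO, of which Hoxb4 held 142, and 24 with EPZ005687 (log2 ratio -1.72, interval -2.41 to -1.09), and the ratio was 5.44 (2.83 to 10.8) without Hoxb4, from 24 counts and 1. Groups 9 to 13 had 41 and then 65, the latter in a library of fewer counts (1.52, interval 0.94 to 2.12). In A the HoxA, HoxB and HoxC ratios lay within counting error. HoxD had 7 counts with EPZ005687 and 0 with DMSO there, so it has no ratio, and its level was 6.998 CPM (2.81 to 14.4) with EPZ005687 against an upper limit of 2.07 CPM with DMSO.

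**Figure D4:**
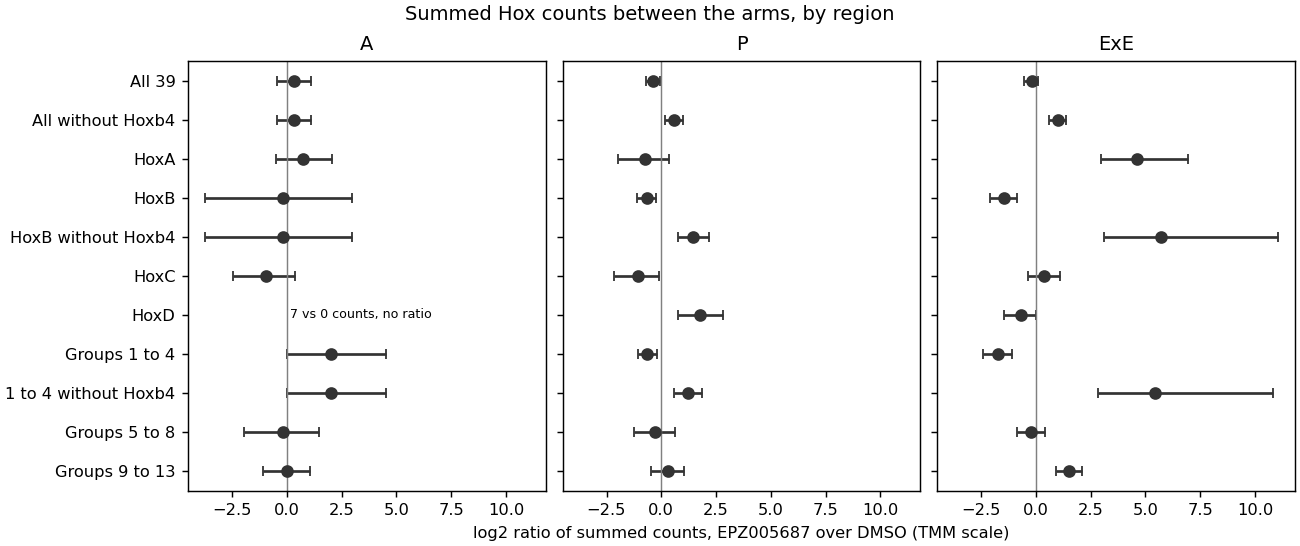
Log2 ratio of summed Hox counts, EPZ005687 over DMSO, on the TMM scale in A, P and ExE, for all 39 genes, by cluster and by paralog group range, with and without Hoxb4 where it is a member; lines are 95% exact binomial intervals of counting error, with 1 library per region and arm. In ExE the HoxA ratio is 4.63 and the HoxB ratio -1.44, or 5.72 without Hoxb4, and leaving out Hoxb4 moves the P ratio of all members from -0.38 to 0.58.

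Tissue markers moved with the arms as well. In ExE, 8 blood and endothelium markers summed to 380 CPM with DMSO (Pecam1 and Tal1 at 0) and 30266 with EPZ005687 (none at 0). The 6 parietal endoderm markers there summed to 9684 (none at 0) and 3913 (Thbd at 0). The 8 allantois and extraembryonic mesoderm markers summed to 1725 (Tbx4 and Hand1 at 0) and 346 (Vcam1 at 0) there. Ahnak alone held 1680 and 273 CPM of these. Vcam1 was also lower with EPZ005687, while Tbx4, Hand1, Bmp4, Foxf1, Postn and Tbx20 were higher in CPM, some by few counts. In P, blood and endothelium markers summed to 7718 CPM with DMSO and 1305 with EPZ005687, with Klf1 and Tal1 at 0 in the latter, the reverse of their order in ExE. In A, visceral endoderm markers summed to 74.1 CPM with DMSO and 3152 with EPZ005687, and 10 anterior neural markers to 744 and 280, with Zic1 at 0 in both. T, a primitive streak gene, was at 0 in A DMSO, 203 CPM in A EPZ005687, 19.3 in P DMSO and 48.8 in P EPZ005687, and at 0.172 and 0 CPM in ExE DMSO and ExE EPZ005687. The part of these markers in the Hox ratios was not tested. The ribosomal precursor Rn45s took 0.0538% to 0.109% of counts with DMSO and 0.521% to 6.54% with EPZ005687, and its part was not tested either.

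More Hox genes had at least 1 count with EPZ005687, and the same held for the table as a whole. In A, 6 of 39 members (15.4%, interval 5.86 to 30.5) had a count with DMSO and 16 (41.0%, 25.6 to 57.9) with EPZ005687. In P the numbers were 23 (59.0%, 42.1 to 74.4) and 24 (61.5%, 44.6 to 76.6). In ExE they were 9 (23.1%, 11.1 to 39.3) and 20 (51.3%, 34.8 to 67.6), although the DMSO library was the deeper one. Over all genes the shares were 63.8% and 84.6% in A, 76.7% and 80.1% in P, and 66.4% and 82.4% in ExE. Thinned to the total of the shallowest library, 5.09, 13.6 and 5.09 Hox genes would be expected in A, P and ExE with DMSO, and 16, 16.5 and 16.6 with EPZ005687. The thinned shares over all genes were 60.1%, 67.2% and 55.1% with DMSO and 84.6%, 73.6% and 78.0% with EPZ005687, so they too were higher with EPZ005687. Members with a count under EPZ005687 alone numbered 12 of 18 in A, beside 27.2% of all genes with a count in that pair, 8 of 31 in P, beside 12.6%, and 14 of 23 in ExE, beside 22.7%. Members with a count under DMSO alone numbered 2, 7 and 3, beside 3.39%, 8.8% and 4.08% of all genes. More than 3 counts were held by 2, 10 and 5 members in A, P and ExE with DMSO and by 2, 7 and 10 with EPZ005687, beside 52.4%, 62.9% and 54.8% of all genes with DMSO and 60.6%, 64.5% and 69.5% with EPZ005687. Across arms, 7 genes had counts with EPZ005687 and none with DMSO (Hoxa2, Hoxa6, Hoxa7, Hoxc6, Hoxd3, Hoxd12 and Hoxd13), 7 of the 36 counted members beside 10.9% of all counted genes. Hoxa3 had 1 count with DMSO and none with EPZ005687, 1 of 36 beside 1.48%. Only Hoxa7 among the 36 counted members lay higher in all 3 EPZ005687 libraries than in all 3 DMSO libraries, against 16.6% of all genes, and 0 lay lower in all 3, against 3.15%.

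**Figure D5:**
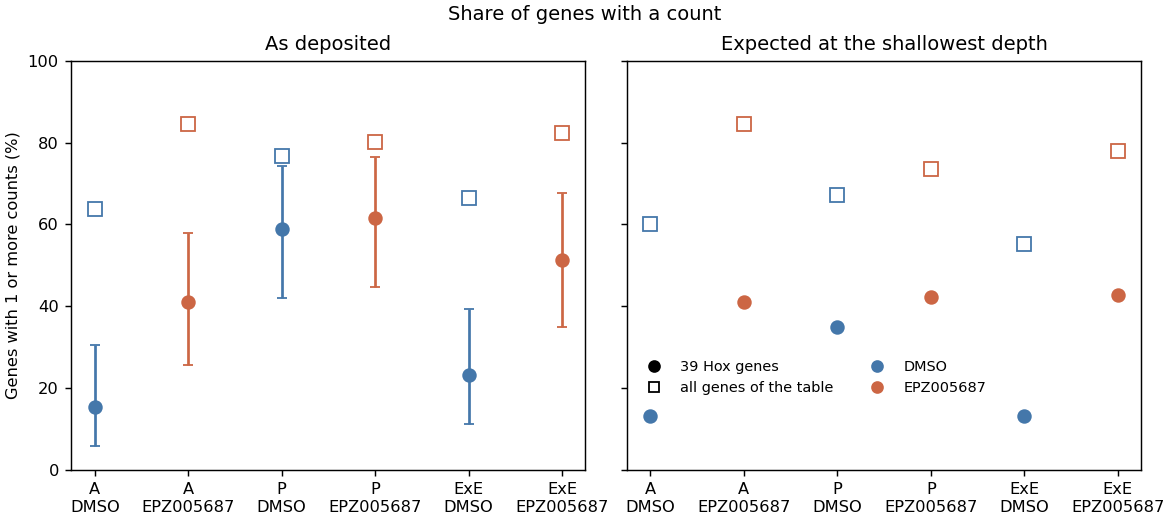
Share of genes with at least 1 count in each library, for the 39 Hox genes (circles, with 95% exact binomial intervals at left) and all 23127 genes (squares), as deposited and after thinning in expectation to 1000342 counts; blue marks DMSO and orange EPZ005687. The Hox shares lie below those of all genes in the 6 libraries, and both are lowest in A DMSO and ExE DMSO.

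Only Hoxb1, Hoxb4, Hoxc13 and Hoxd9 passed the filter of 10 or more counts in at least 2 libraries for edgeR's quasi-likelihood test, fitted on 13744 genes. Each passed it through the P and ExE libraries of 1 arm, Hoxb4 and Hoxc13 with DMSO and Hoxb1 and Hoxd9 with EPZ005687, and with lower counts in the other arm. Genes that pass in this way had to differ in counts between the arms, whose library totals differ too. Each also had fewer than 10 counts in both A libraries, so in that arm its counts were higher in P and ExE by selection. Their values in every contrast, between regions as well as arms, are therefore a description and no support for a difference. The p-values measure only the spread between these 6 libraries, and nothing in the labels says that they came from separate cultures. With EPZ005687 against DMSO, 0 of the 4 passed an adjusted p of 0.05 in edgeR, beside 0.0509% of all tested genes higher and 1.48% lower. At an unadjusted p under 0.05 it was 1 of 4 in edgeR, beside 2.92% of all genes higher and 5.95% lower. DESeq2 and limma-voom gave 0 of 4 at an adjusted p, beside 572 and 398 of all 13744 genes. For Hoxb4 the edgeR fit gave -4.79 on the log2 scale (SE 1.81, edgeR adjusted p = 0.425), and it lay lower with EPZ005687 in the 2 regions where it was counted. Its adjusted p over the alternatives ran down to 0.131. Hoxb1 was at 4.49 (SE 2.77, edgeR adjusted p = 0.744), Hoxd9 at 2.53 (SE 2.27, 0.851) and Hoxc13 at -1.73 (SE 2.37, 0.905).

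In P against A no Hox gene passed either, beside 0% of all 13744 tested genes higher and 0% lower in this edgeR fit. Other settings called genes of the table but again 0 Hox genes: 180 genes in DESeq2, 23 in limma-voom, 140 of 22026 in edgeR without the filter and 173 of 19125 in edgeR with 5 or more counts in 1 library. Hoxb4 had the smallest p of the 4 (edgeR adjusted p = 0.619), and the smallest adjusted p over its alternatives was 0.0602. Its fitted log2 fold change of 9.71 (SE 3.03) is set against A libraries at 0 and is no bound. Hoxd9, also at 0 in both A libraries, was fitted at 5.80 (SE 3.59, edgeR adjusted p = 0.935). Hoxb1 at -0.55 and Hoxc13 at -0.09 had standard errors of 2.03 and 2.10. At an unadjusted p under 0.05 there was 1 of 4 in edgeR, beside 4.31% of all genes higher and 1.1% lower. In ExE against the mean of A and P, 0 of 4 passed at either level in edgeR, beside 0% of all genes at an adjusted p, and 3.99% higher and 2.44% lower at an unadjusted one, in edgeR. The other settings, in the same order, called 242, 35, 210 and 251 genes there and 0 Hox genes. Hoxb4 had the largest value there, 3.01 (SE 1.90, edgeR adjusted p = 0.898). Whether the arms differed by another amount in ExE than in A and P was tested with an interaction term, and 0 of 4 passed at either level in edgeR. DESeq2 and limma-voom gave 0 of 4 at an adjusted p, beside 16 and 6 of all 13744 genes. The background in edgeR was 0.0509% of all genes higher and 0% lower at an adjusted p, and 2.55% and 1.2% at an unadjusted one. Hoxb4 was at -6.27 (SE 4.02, edgeR adjusted p = 1), so a difference between regions in its response was not detectable with these libraries.

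The partners of Hox proteins were counted more deeply. All 9 genes of the TALE family, whose PBX, MEIS and PKNOX proteins bind DNA together with Hox proteins, were tested. None passed an adjusted p in edgeR, DESeq2 or limma-voom in any contrast, and their median log2 fold change with EPZ005687 was 0.19, beside 0.20 over all genes. For EPZ005687 against DMSO these tools called 210, 572 and 398 of all 13744 genes. The numbers for the other contrasts are given above, and all of them are the background for the lists below too. At an unadjusted p under 0.05, 1 of 9 passed for EPZ005687 against DMSO in edgeR, beside 2.92% of all genes higher and 5.95% lower. Meis1 stood at 57.9 and 10.996 CPM in A, 42.2 and 37.3 in P and 11.4 and 5.51 in ExE, with DMSO first. Its log2 fold change in ExE against the mean of A and P was -2.08 (SE 0.87, edgeR adjusted p = 0.728). The TALE sum was 288 and 248 CPM in A, 273 and 155 in P, and 102 and 135 in ExE, so it was lower in ExE than in A in both arms, unlike the summed Hox level.

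Of 10 regulators of Hox genes, 6 were tested and none passed an adjusted p in edgeR, DESeq2 or limma-voom in any contrast. At an unadjusted p for EPZ005687 against DMSO, 0 passed in edgeR, beside the same 2.92% and 5.95% of all genes, and the list's median log2 fold change was 0.46, beside 0.20 over all genes. Kmt2a, the methyltransferase that maintains Hox expression, was at 66.8 and 54.0 CPM in A, 56.3 and 102 in P, and 80.2 and 76.2 in ExE. Cyp26a1, which degrades retinoic acid, was at 0 and 37.0 CPM in A, 21.4 and 66.7 in P, and 11.7 and 38.1 in ExE, higher with EPZ005687 in the 3 regions. Rarb, a retinoic acid receptor and target, was at 0 and 21.0 CPM in A, 11.7 and 10.6 in P, and 10.5 and 17.5 in ExE. The caudal genes that activate posterior Hox genes were near their floors, with Cdx1 at 3 counts in all and Cdx2 at 47, of which 31 were in A DMSO and 14 in P EPZ005687.

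Of the PRC2 subunits, 9 of 10 were tested and none passed an adjusted p in edgeR, DESeq2 or limma-voom in any contrast. With EPZ005687 against DMSO, Ezh2, the inhibitor's target, was fitted at -1.22 on the log2 scale (SE 0.48, edgeR adjusted p = 0.451), from 449 to 222 CPM in A, 320 to 190 in P and 281 to 181 in ExE. At an unadjusted p under 0.05, 3 of 9 passed in edgeR, beside 2.92% of all genes higher and 5.95% lower, and the list's median was -0.81, beside 0.20 over all genes. An RNA level does not measure the activity the compound acts on.

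The neighbours of the clusters were well counted where the Hox genes were not. The 18 flanking genes summed to between 1126 CPM in ExE DMSO and 1807 in P EPZ005687. Of 13 tested, none passed an adjusted p in edgeR, DESeq2 or limma-voom in any contrast, and their median log2 fold change with EPZ005687 was -0.06, beside 0.20 over all genes. At an unadjusted p 1 of 13 passed in edgeR, beside 2.92% and 5.95% of all genes. Evx2, next to Hoxd13 and regulated with HoxD, was at 0 in all 6 libraries, and Evx1, next to Hoxa13, had 3 counts in all. Cbx5, the most counted neighbour, was at 722 and 581 CPM in A, 484 and 199 in P and 127 and 241 in ExE. Of 19 noncoding RNAs of the clusters that were looked for, 10 were in the table, and 1 of those passed the filter, with 0 at an adjusted p for EPZ005687 against DMSO in edgeR, DESeq2 and limma-voom and 0 at an unadjusted one in edgeR. Hotair, transcribed from HoxC, was at 14.6 CPM in A DMSO and at most 2.005 in the other 5 libraries; A DMSO was also the library where Hoxc9 was highest. Hotairm1, transcribed from HoxA, was at 0 and 3.999 CPM in A, 2.05 and 6.44 in P and 3.27 and 0 in ExE. Whether strand was used in counting is not given in the sources used here, so reads of overlapping antisense RNAs cannot be told apart from those of the Hox genes.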

How the data were processed

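The authors deposited whole-number read counts per gene, not normalized, for 6 RNA libraries. Per the submitters' processing notes, tools were CASAVA 1.8, TopHat2 2.0.9 and BWA, and the build was mm10. Which program counted the reads, with which strand setting and annotation, is not given in the sources used here. Of 23154 entries, 27 held dates in place of symbols and were left out (0.162% to 0.961% of counts); 23020 of the other 23127, and all 39 Hox genes, matched RefSeq GRCm38.p6, the same assembly as mm10, which gave coordinates and promoters.

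Groups were region by treatment, with 1 library each. A gene was tested if at least 2 libraries held 10 or more counts. The quasi-likelihood fit of edgeR 4.0.16, in R 4.3.3 and with TMM factors, had region and treatment as additive terms over the 6 libraries. A further fit added a term for treatment in ExE. P-values were adjusted by Benjamini-Hochberg over all tested genes, threshold 0.05, with SE as the log2 fold change over the root of F. The scripts were tested on simulated counts. DESeq2 1.42.0, limma-voom 3.58.1, other filters, other scalings, thinning and leaving out each library were alternatives.

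Library totals of 1000342 to 5812535 counts set floors of 2.999 to 0.516 CPM. Folds against a library at 0 used 3 counts in that library and took the other count as exact. Hox genes with 10 or more counts in all are given with each library's count, the rest by range, and each other list by its calls and up to 4 of its most counted genes. For 1 Hox gene and 1 listed cofactor, single values are not reported here; sums and counts include them. Members and lists were chosen with earlier results of these data known.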

Additional observations from a re-analysis of the deposited data

Results flagged for a closer look

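Results that pointed in different directions in the 3 regions are given here as values, and the difference between regions was not tested for the sum. The summed Hox log2 ratio of EPZ005687 over DMSO was 0.32 in A, -0.38 in P and -0.19 in ExE. For Hoxb1, CPM with EPZ005687 minus CPM with DMSO was -0.685 in A, 17.0 in P and 6.52 in ExE, where the value in A rests on 1 count against 3. For Hoxc13 the same difference was 3.44 in A, -7.32 in P and -3.17 in ExE, where the value in A rests on 4 counts against 1. In the interaction fit, Hoxb1 and Hoxc13 both had an edgeR adjusted p of 1.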

How the results depend on the processing

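No Hox gene passed an adjusted p of 0.05 under any of the 40 alternatives for the number called. Of 122 alternatives for the 4 tested genes, 109 kept the direction. Leaving out Hoxb4 from HoxB and from groups 1 to 4, chosen after seeing the data, turned EPZ005687 over DMSO to 1.45 and 1.21 in P and to 5.72 and 5.44 in ExE. Leaving it out of all members turned the P ratio of EPZ005687 over DMSO to 0.58, moved that of ExE to 0.99 and that of P over A with DMSO to 0.84. The ExE ratio was 0.49 on library totals and 0.36 on totals without Rn45s and the 50 most counted genes. Asking for 2 or more counts left 8 members in A EPZ005687, 14 in P DMSO and 13 in P EPZ005687, and thinning left 13.6 in P DMSO and 5.09 in ExE DMSO. The sign turned for Hoxc13 with treatment without P EPZ005687 (0.0047), for P against A in limma-voom (Hoxb1 1.74, Hoxc13 0.80), and for the Hoxc13 interaction in limma-voom (0.049) and on library totals (0.062). For P against A it also turned for Hoxb1 without A DMSO (4.28), P DMSO (1.996) or ExE DMSO (0.80), and for Hoxc13 without A EPZ005687 (3.13), P EPZ005687 (2.13) or ExE EPZ005687 (0.14). For ExE against A and P it turned without A DMSO (Hoxb1 0.64, Hoxc13 -0.014). Over the alternatives, P against A ran from -4.59 to 4.28 for Hoxb1 and from -2.64 to 3.13 for Hoxc13, treatment from -3.47 to 0.0047 for Hoxc13, and ExE against A and P from -3.80 to 0.64 for Hoxb1 and from -0.014 to 2.91 for Hoxc13. The cause of these turns was not tested. Without any 1 of the P or ExE libraries 2 Hox genes passed the filter, and with A and P alone 0 did. The interaction could not be fitted with a library left out. No paired analysis was possible because the groups compared, with 1 library each, share fewer than 2 replicate numbers. Region, which the arms share, was a term of the model, and 0 Hox genes passed without it. Most members had 3 or fewer counts in most libraries.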
